A study of Mus musculus with 13 samples.

Results

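Granzymes are serine proteases stored in the granules of cytotoxic lymphocytes, and perforin is the pore-forming protein that lets them enter a target cell. The genes followed here were Prf1, which encodes perforin, and the granzyme genes Gzma, Gzmb, Gzmc, Gzmd, Gzme, Gzmf and Gzmg. They were taken by symbol, with every probe that the array annotation gives to them, in RNA of 4T1 tumours. On the larger platform 7 of these 8 genes had a named probe, with 10 probes in all of 45281, and 5 genes with 8 probes passed the detection filter, among 11057 genes kept. On the smaller platform all 8 had a probe, 11 probes of 25697, and again 5 genes with 8 probes passed, among 9714 genes kept.

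Granzyme A is a trypsin-like protease, and granzyme B cuts after aspartate and activates caspases and Bid. Granzymes C to G are a rodent group of close relatives of granzyme B whose genes lie beside Gzmb, and they are known from activated killer cells and from the natural killer (NK) cells of the pregnant uterus. Cytotoxic T cells and NK cells make perforin and granzymes together, and both reach the immune synapse in the same granule.

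The tumours grew orthotopically from 4T1, a carcinoma line of the mouse mammary gland. In PDGFRb-TK hosts the Pdgfrb promoter, active in pericytes and also in fibroblasts, drives a viral thymidine kinase, and ganciclovir (GCV) then kills the cells that carry it while they divide. Every sample is labelled as injected with GCV. The first 9 arrays form 3 groups of 3, called TK/IgG (PDGFRb-TK, control IgG), TK/anti-Ang2 (PDGFRb-TK, an antibody that binds angiopoietin 2) and WT/IgG (wild type, control IgG). The other 4 arrays, 1 per group, are an early and a late pericyte ablation, each with its control. Groups were taken from the titles, because the transgene field reads positive for every sample, WT hosts included, and the genotype field of both pair controls names the transgene where their descriptions say WT. Age, dose and times are not given in the labels, and no label says whether replicates came from different animals. The spread behind each p-value is thus that of these arrays and could be technical.

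On the 9 arrays 40.6% to 43.2% of probes were detected, and TK/anti-Ang2 replicate 2 stood apart, with a median correlation of 0.931 with the other arrays against 0.968 to 0.977 for the rest. Pdgfrb, the gene whose promoter drives the kinase, was lower in TK/IgG than in WT/IgG by a log2 difference of -1.10. The groups did not overlap, as was the case for 8.27% of all genes, and limma's adjusted p was 0.999. In the pairs Pdgfrb differed by 0.06 early and -0.78 late. Keratin genes (Krt7, Krt8, Krt18, Krt19) and Cdh1 were detected on all 9 arrays, and Epcam, another epithelial marker, was detected on none. The number of arrays limits the precision of every value below.

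The granzyme B family sits in 1 stretch of mouse chromosome 14, in a run of 15 protein-coding genes that also holds mast cell proteases and cathepsin G. In RefSeq's order on GRCm38.p6 the stretch reads Cma1, Cma2, Mcpt1, Mcpt2, Mcpt9, Mcpt4, Mcpt8, Ctsg, Gzme, Gzmd, Gzmg, Gzmn, Gzmf, Gzmc and Gzmb. Prf1 lies on chromosome 10 and Gzma on chromosome 13. Each of the 8 genes had 1 RefSeq window of 300 bases around its start, 250 before and 50 after. The windows of Gzme, Gzmd, Gzmg and Gzmf are shown because these followed genes were detected and varied together over the arrays, and those of Gzmc and Gzmb because they were not detected. All are on the minus strand of GRCm38.p6 and are written 5′ to 3′, with the longest run of bases common to Gzme, Gzmd, Gzmg and Gzmf in capitals.
Gzme, chr14:56120576-56120875: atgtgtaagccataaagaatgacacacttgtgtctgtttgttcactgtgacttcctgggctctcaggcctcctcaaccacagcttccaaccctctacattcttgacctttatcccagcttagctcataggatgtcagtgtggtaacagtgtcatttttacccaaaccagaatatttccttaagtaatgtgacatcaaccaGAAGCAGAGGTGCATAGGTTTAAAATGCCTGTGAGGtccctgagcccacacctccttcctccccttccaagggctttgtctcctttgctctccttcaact
Gzmd, chr14:56132544-56132843: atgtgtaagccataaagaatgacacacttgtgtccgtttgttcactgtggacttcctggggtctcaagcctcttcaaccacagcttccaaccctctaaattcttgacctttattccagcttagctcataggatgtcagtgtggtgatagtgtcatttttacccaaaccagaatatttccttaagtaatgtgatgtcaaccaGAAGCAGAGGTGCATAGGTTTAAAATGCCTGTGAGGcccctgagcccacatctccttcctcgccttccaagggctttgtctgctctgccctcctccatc
Gzmg, chr14:56159530-56159829: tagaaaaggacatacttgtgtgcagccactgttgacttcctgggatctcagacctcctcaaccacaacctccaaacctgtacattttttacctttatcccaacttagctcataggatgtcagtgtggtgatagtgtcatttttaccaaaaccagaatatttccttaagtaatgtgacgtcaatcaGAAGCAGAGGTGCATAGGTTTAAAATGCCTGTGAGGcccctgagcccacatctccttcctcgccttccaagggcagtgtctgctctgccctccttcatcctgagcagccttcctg
Gzmf, chr14:56211358-56211657: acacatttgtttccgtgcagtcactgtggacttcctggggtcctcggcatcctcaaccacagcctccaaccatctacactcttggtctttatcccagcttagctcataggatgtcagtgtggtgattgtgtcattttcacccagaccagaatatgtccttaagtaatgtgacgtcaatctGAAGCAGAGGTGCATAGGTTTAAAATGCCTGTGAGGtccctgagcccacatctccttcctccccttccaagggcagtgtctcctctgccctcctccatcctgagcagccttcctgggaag
Gzmc, chr14:56234608-56234907: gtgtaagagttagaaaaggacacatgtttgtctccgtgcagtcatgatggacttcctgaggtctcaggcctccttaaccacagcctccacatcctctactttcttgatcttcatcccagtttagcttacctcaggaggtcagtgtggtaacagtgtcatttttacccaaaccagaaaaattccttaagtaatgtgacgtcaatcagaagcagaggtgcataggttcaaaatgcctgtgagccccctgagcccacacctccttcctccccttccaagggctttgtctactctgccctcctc
Gzmb, chr14:56262285-56262584: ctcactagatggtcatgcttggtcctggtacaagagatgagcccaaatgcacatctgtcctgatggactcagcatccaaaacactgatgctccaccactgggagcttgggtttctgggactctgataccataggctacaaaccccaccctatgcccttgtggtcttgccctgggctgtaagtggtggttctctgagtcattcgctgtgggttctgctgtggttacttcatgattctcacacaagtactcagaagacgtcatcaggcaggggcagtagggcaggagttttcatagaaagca

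The shared run is 36 bases long and starts 50 bases before the gene's start in Gzme (-50), at -49 in Gzmd, at -65 in Gzmg and at -70 in Gzmf. Of 32851 windows in the table, 4 held it on either strand, those of these genes. At its best placement the Gzmc window matched 34 of the 36 bases, with the substitutions T21C and G36C counted from the 5′ end of the run, and the Gzmb window matched 16. Aligned end to end, the windows of Gzme and Gzmd were 93.4% identical, those of Gzmg and Gzmf 84.5%, those of Gzme and Gzmc 82.7% and those of Gzme and Gzmb 44.7%. The windows of Gzmn and Ctsg, genes of the same stretch that were detected on all 9 arrays, matched 17 of the 36 bases and were 47.2% and 46.2% identical to that of Gzme. Gzmc, whose window was like those of the 4 genes, was not detected by its probe, which does not show that its RNA was absent. Gzmn and Ctsg, whose windows were unlike them, were detected. Whether the windows bear on expression was not tested.

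Motifs were searched on both strands of the same windows. The RUNX letters TGTGGTT were in the windows of Gzme, Gzmd, Gzmg, Gzmf, Gzmc, Gzmb and Gzma and in 5.27% of all windows. The cyclic AMP response letters TGACGTCA were in those of Gzmg, Gzmf and Gzmc and in 1.79% of all. The windows of Gzme, Gzmd, Gzmg, Gzmf and Gzmc were 73.5% to 93.4% identical to each other. Matches shared among them are thus not independent counts to set against the share of all windows. The AP-1 letters TGANTCA were in the Gzmb window alone among the windows of the 8 genes, and in 7.81% of all. The T-box letters GGTGTGA were in none of them, and in 3.98% of all windows. A match is a description of letters in a window and not of a bound site.

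The classical pair of granzymes was not detected. The Gzmb probe was above background on 0 of 9 arrays, with signals of 102.6 to 127.7 and detection p from 0.21902 to 0.90064. Gzmc was likewise detected on 0 of 9, with signals of 105.8 to 125.2. Gzma has no probe named for it on the larger platform. The probe that carries its symbol on the smaller platform is present under the same identifier, and it was detected on 0 of 9 arrays, with signals of 105.1 to 128 and detection p from 0.21261 to 0.74786. Of 23527 such shared probes named on both platforms 99.79% carried the same symbol. On the 4 arrays these genes were again detected on 0. A probe at background gives only a bound, so no fold change is given for Gzma, Gzmb or Gzmc, and these signals do not show that their RNA was absent.

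Granzymes D, E and G were detected on every one of the 9 arrays by each of their probes. These genes are close relatives, and probe sequences were not used here, so how far 1 probe reads a neighbour's RNA was not tested. Gzmd, by its brighter probe, had normalised log2 signals of 11.71, 11.31 and 12.48 on the WT/IgG arrays 1 to 3, of 12.56, 12.57 and 12.62 in TK/IgG, and of 12.36, 10.82 and 13.02 in TK/anti-Ang2. The TK/IgG arrays lay close together, above the highest WT/IgG array, and the TK/anti-Ang2 group held both the lowest and the highest array of all 9. The dimmer Gzmd probe ran from 7.72 on TK/anti-Ang2 replicate 2 to 10.18 on TK/anti-Ang2 replicate 3, and by it WT/IgG replicate 3 (9.69) lay within the TK/IgG arrays (9.53 to 9.74).

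Gzme read 7.63, 6.88 and 8.42 in WT/IgG, 8.93, 8.31 and 8.55 in TK/IgG, and 8.54, 7.08 and 9.45 in TK/anti-Ang2. Gzmg had deposited signals of 634.1, 394.5 and 1371.2 in WT/IgG, 1128.1, 999.5 and 1159.1 in TK/IgG, and 791.7, 333 and 2049.8 in TK/anti-Ang2. For both genes the groups overlapped, and WT/IgG replicate 3 lay far above the other WT/IgG arrays. Gzmf was near background and was detected on 8 of 9 arrays, all but WT/IgG replicate 1. It read 4.78, 5.30 and 6.04 in WT/IgG, 6.58, 6.07 and 5.77 in TK/IgG, and 5.72, 5.22 and 6.43 in TK/anti-Ang2.

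Perforin was measured by 2 probes, both detected on all 9 arrays. The dimmer one was near background on its lowest arrays, with deposited signals of 136.4 to 388.1 and detection p up to 0.01603. Those of the brighter one were 1127.9 to 7127.2. The brighter one read 10.76, 10.13 and 10.36 in WT/IgG, 12.93, 10.53 and 10.84 in TK/IgG, and 11.73, 12.15 and 10.69 in TK/anti-Ang2. TK/IgG replicate 1 was far above its group, at a deposited signal of 7127.2 against 1533.1 and 2133.6. The dimmer probe read 6.11, 5.44 and 7.01 in WT/IgG, 6.44, 6.90 and 6.39 in TK/IgG, and 6.49, 5.60 and 8.08 in TK/anti-Ang2. Here TK/IgG replicate 1 was not high, and TK/anti-Ang2 replicate 3, the lowest of its group by the brighter probe, was the highest array.

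**Figure D1:**
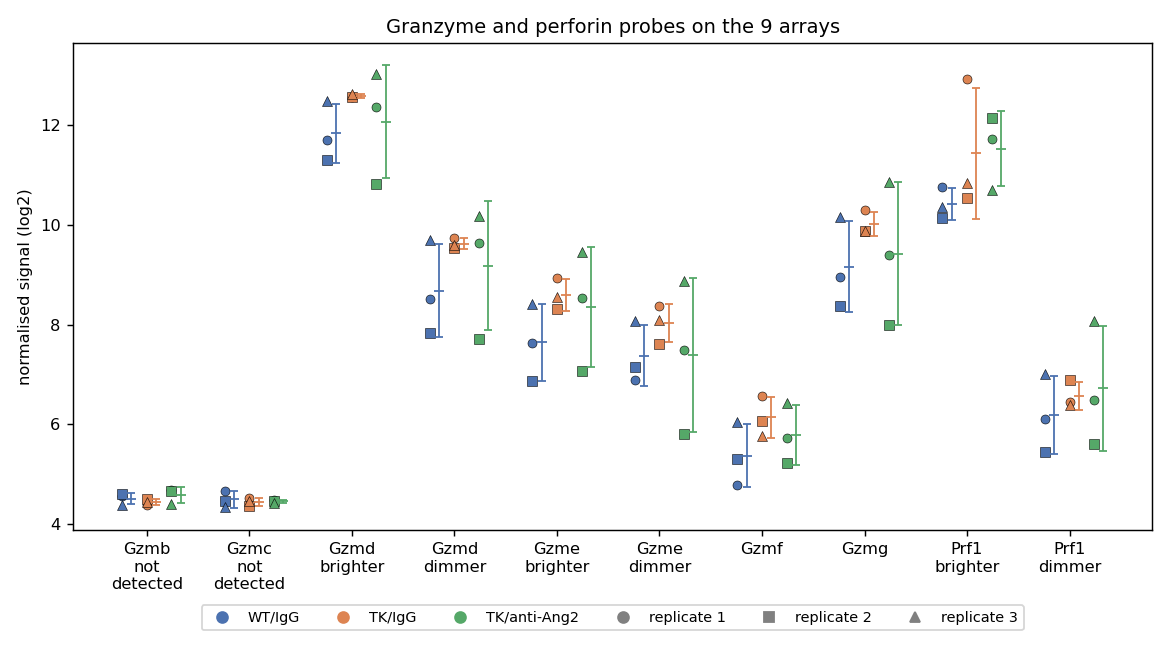
Normalised log2 signal of each granzyme and perforin probe on the 9 arrays. Colours are the groups, symbols the replicate numbers, and the bar beside each group is its mean with the SD (n = 3). Gzmb and Gzmc lie at background on every array, and for Gzmd, Gzme and Gzmg TK/anti-Ang2 replicates 2 and 3 lie far apart.

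In ablated tumours given control IgG, every detected gene of the set had a higher mean than in WT/IgG, and no difference passed the test. Over all genes, limma with Benjamini-Hochberg adjustment called 0 of 11057 (0%) at an adjusted p under 0.05, and 325 (2.94%) had an unadjusted p under 0.05, none of them a detected granzyme or Prf1. Means were 12.59 ± 0.03 against 11.83 ± 0.60 for Gzmd (SD, n = 3 each), a log2 difference of 0.75 with an SE of 0.51 and a 95% interval of -0.39 to 1.90. The differences were 0.96 (interval -0.34 to 2.25) for Gzme, 0.76 (-0.12 to 1.65) for Gzmf, 0.86 (-0.66 to 2.38) for Gzmg and 1.02 (-0.35 to 2.39) for the brighter Prf1 probe, all with an adjusted p of 0.999. That 5 of 5 were higher compares with 46.4% of all genes, but Gzmd, Gzme, Gzmf and Gzmg varied together and are not independent counts. The groups did not overlap for Gzmd alone among these genes, which was the case for 8.27% of all genes, and its two-sided exact permutation p was 0.1, the lowest value possible with 3 arrays a group.

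All of these intervals hold 0 and are wide, so the test does not show that the levels were alike. The Prf1 difference of 1.02 was 0.27 without TK/IgG replicate 1. Without WT/IgG replicate 2 the differences were 0.49 for Gzmd, 0.57 for Gzme and 0.46 for Gzmg, and that of Gzmf was 0.46 without WT/IgG replicate 1. For Gzmf, the gene nearest background, it was 0.39 with normexp and 0.27 with no background correction. The dimmer Prf1 probe differed by 0.39 with an SE of 0.58.

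The antibody to angiopoietin 2 was not followed by a called change either. TK/anti-Ang2 minus TK/IgG was -0.52 for Gzmd (95% interval -1.66 to 0.63), -0.24 for Gzme (-1.54 to 1.05), -0.35 for Gzmf (-1.23 to 0.54) and -0.60 for Gzmg (-2.11 to 0.92), with limma's adjusted p of 0.992 for each. For the brighter Prf1 probe it was 0.09 (-1.28 to 1.46), with an adjusted p of 0.995. Without TK/anti-Ang2 replicate 2 the differences were 0.11 for Gzmd, 0.39 for Gzme, 0.11 for Gzmg and -0.06 for Gzmf, so that the first 3 turned. That for Prf1 turned without any of 4 arrays, to -0.36 and -0.21 without TK/IgG replicates 2 and 3 and to -0.01 and -0.23 without TK/anti-Ang2 replicates 1 and 2. Over all genes 0 (0%) passed by limma and 369 (3.34%) had an unadjusted p under 0.05.

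TK/anti-Ang2 minus WT/IgG shares its arrays with both other comparisons. It was 1.11 for the brighter Prf1 probe (-0.26 to 2.47, adjusted p 0.683), 0.71 for Gzme (adjusted p 0.749), 0.42 for Gzmf (0.788), 0.26 for Gzmg (0.935) and 0.24 for Gzmd (0.918), all by limma. Those 5 of 5 were higher, as were 44.6% of all genes, and again Gzmd to Gzmg are not independent counts. Of all genes, 0 (0%) passed and 817 (7.39%) had an unadjusted p under 0.05. Without TK/anti-Ang2 replicate 3 the differences for Gzmd and Gzmg were -0.24 and -0.46.

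Most of the spread among arrays lay within the groups. Over the 9 arrays the SD of the log2 signal was 0.72 for Gzmd, 0.85 for Gzme, 0.59 for Gzmf and 0.94 for Gzmg, where the median gene had 0.27. Gzmg spanned 7.25-fold from its lowest to its highest array, and 2.89% of genes had a larger SD. The groups accounted for 21.4% of the variance of Gzmd, 25.9% of that of Gzme, 31.8% of that of Gzmf and 16.6% of that of Gzmg.

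That spread was shared among Gzmd, Gzme, Gzmf and Gzmg. Over the 9 arrays Gzmd and Gzmg had Pearson's r = 0.97 and Spearman's rho = 0.87 (exact permutation, adjusted p = 0.000524 and 0.015 over 10 gene pairs). Gzme and Gzmg had r = 0.96 and rho = 0.90, and Gzmd and Gzme r = 0.94 and rho = 0.83. The pairs with Gzmf, the gene nearest background, had r of 0.79 to 0.85. All 6 pairs among Gzmd, Gzme, Gzmf and Gzmg passed, with exact adjusted p of 0.000524 to 0.0185 for r. The relation held within groups, after each group's mean was taken off (r 0.73 to 0.98), without TK/anti-Ang2 replicate 2 (0.81 to 0.96) and without the 2 arrays farthest from the median (0.86 to 0.97). The points share the array and its normalisation.

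Genes next to them had a similar pattern. Among 11052 candidate genes, the one most like the mean of Gzmd to Gzmg over the 9 arrays was Ctsg, which encodes cathepsin G, a granule protease known from neutrophils and mast cells, with r = 0.958 and, within groups, 0.953. Ctsg is the next gene of the stretch beside Gzme. It read 6.07, 5.34 and 6.80 in WT/IgG, 7.20, 7.17 and 6.81 in TK/IgG, and 6.49, 5.74 and 7.43 in TK/anti-Ang2. Its TK/IgG arrays lay above all WT/IgG arrays by a narrow margin, 6.81 on TK/IgG replicate 3 against 6.80 on WT/IgG replicate 3. In deposited signal the groups overlapped, with 218.9 on TK/IgG replicate 1 and 225.6 on WT/IgG replicate 3. The log2 difference was 0.99 (SE 0.45), with limma's adjusted p of 0.999. Groups without overlap were seen for 8.27% of all genes in that comparison. The next 4 by likeness were Avl9 (0.94), Zfp821 (0.935), Nom1 (0.927) and Zfp623 (0.919), of which none lies in the stretch. Nom1 was near background, at 4.83 to 5.66. Gzmn, a granzyme gene between Gzmg and Gzmf, was detected on all 9 arrays and was likewise lowest on TK/anti-Ang2 replicate 2 (6.03) and highest on TK/anti-Ang2 replicate 3 (7.28). Gzmm, a granzyme gene of chromosome 10 detected on 7 of 9 arrays, had another order, highest on TK/IgG replicate 2 (6.01) and lowest on TK/IgG replicate 1 (4.90).

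Beyond both ends of this run of 6 neighbours the values differed. Gzmc and Gzmb on one side were at background. On the other side the mast cell chymase genes Mcpt4, Cma1 and Cma2 were highest on TK/anti-Ang2 replicate 2, at 10.20, 9.90 and 10.78, the array on which Gzmd and Gzmg were lowest. They were lowest on WT/IgG replicate 2. The basophil protease gene Mcpt8, next to Ctsg, was also highest on TK/anti-Ang2 replicate 2, at 6.28.

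**Figure D2:**
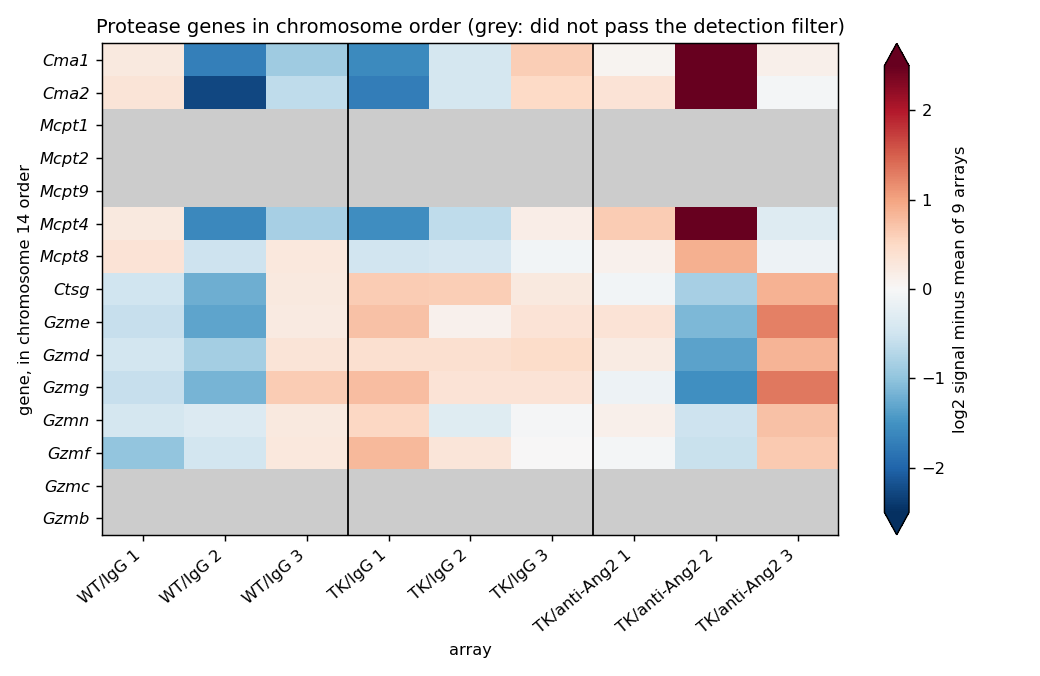
Log2 signal minus the gene's mean of 9 arrays for the 15 protease genes of chromosome 14, in gene order from top to bottom, with arrays in columns and lines between the groups. Gzmd, Gzmg and Gzmn are highest on TK/anti-Ang2 replicate 3 and lowest on TK/anti-Ang2 replicate 2, Ctsg and Gzme are lowest on WT/IgG replicate 2, Gzmf is lowest on WT/IgG replicate 1, Cma1, Cma2 and Mcpt4 peak on TK/anti-Ang2 replicate 2, and genes in grey did not pass the detection filter.

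The Prf1 probes gave different results on whether perforin varied with the granzymes. The brighter probe had r of -0.10 with Gzmd, 0.16 with Gzme, 0.23 with Gzmf and -0.04 with Gzmg over the 9 arrays, with exact permutation adjusted p of 0.781 to 0.928. The dimmer probe, near background on its lowest arrays, was looked at after the data were seen. It had r of 0.71 to 0.89 and rho of 0.70 to 0.82 with the 6 probes of Gzmd to Gzmg. By r all 6 passed, with exact adjusted p of 0.00265 to 0.0417 over 28 probe pairs. By rho 3 passed, both Gzmd probes and Gzmg, and both Gzme probes (exact adjusted p = 0.0577 each) and Gzmf (0.0543) did not. The r was 0.74 to 0.95 within groups, 0.66 to 0.88 without TK/anti-Ang2 replicate 2 and 0.56 to 0.98 without the 2 arrays farthest from the median. The 2 Prf1 probes had r = -0.19 and rho = -0.15 with each other (exact permutation, adjusted p = 0.743).

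The genes most like the brighter Prf1 probe were Rhbdl2 (r = 0.992), Erich5 (0.985), Gm10125 (0.978), Gm7609 (0.978) and Irgm1 (0.978), over 9 arrays and 11052 candidates. Rhbdl2 encodes an intramembrane protease and Irgm1 an interferon-induced GTPase. Like that probe, Erich5 was highest on TK/IgG replicate 1 (13.93) and then on TK/anti-Ang2 replicates 2 and 1 (13.30 and 12.96), with the other 6 arrays between 11.43 and 12.03. The neutrophil gene Retnlg was also highest on TK/IgG replicate 1 (11.71) and TK/anti-Ang2 replicates 1 and 2 (10.77 and 10.67), and the mean of the 8 neutrophil markers kept ran from 7.91 to 9.77 in TK/IgG, 8.10 to 9.55 in TK/anti-Ang2 and 8.43 to 8.64 in WT/IgG. Their part in the Prf1 signal was not tested. The dimmer probe was most like Rasd2 (0.956), Nom1 (0.943), Avil (0.923), Zfp821 (0.917) and Nelfb (0.917), of which Nom1 and Zfp821 were also among the 5 most like Gzmd to Gzmg. Rasd2 and Nom1 were near background, at 4.55 to 6.14 and 4.83 to 5.66 over the 9 arrays.

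**Figure D3:**
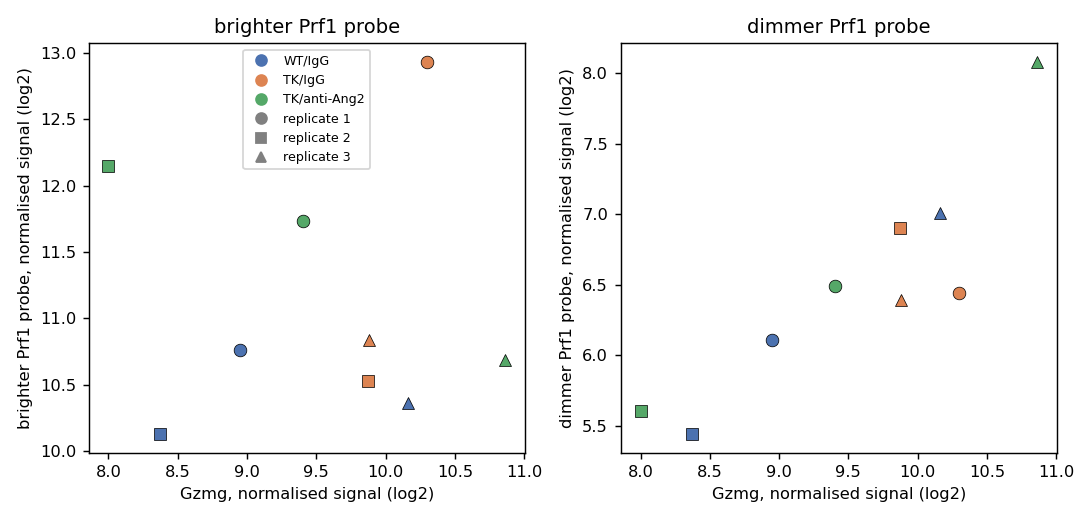
Normalised log2 signal of the brighter (left) and the dimmer (right) Prf1 probe against Gzmg, 1 point per array, with colours for groups and symbols for replicate numbers. The left panel shows no common order (r = -0.04), and in the right panel the arrays with low Gzmg are those with low Prf1.

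Because Gzma, Gzmb and Gzmc gave no level, their shift could not be set against that of the other members, and perforin was compared with the mean of Gzmd, Gzme, Gzmf and Gzmg instead. From WT/IgG to TK/IgG the brighter Prf1 probe shifted by 1.02 and the granzyme mean by 0.83, a difference of 0.18 where the SD of the array differences within groups was 0.93. From TK/IgG to TK/anti-Ang2 the shifts were 0.09 and -0.43, a difference of 0.52 (SD 1.50). With the dimmer probe the differences were -0.45 (SD 0.33) and 0.57 (SD 0.38). Leaving out 1 array moved the brighter probe's difference of 0.18 to between -0.44 and 0.57, the lowest without TK/IgG replicate 1, so its sign was not stable. The difference of 0.52 likewise ran from -0.37 without TK/anti-Ang2 replicate 2 to 1.45 without TK/anti-Ang2 replicate 3.

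In the pairs of ablated and control tumours, 1 array each and so with no test, granzymes D, E and G were lower after early ablation and not after late ablation. Of all genes, 24.5% were lower early and higher late. Gzmd had a deposited signal of 3702.8 in the early control and 1465.8 in the early ablation, and of 1291.4 and 1585.9 in the late control and ablation. After normalisation this was a log2 difference of -1.39 early and 0.76 late. The other Gzmd probe differed by -1.20 and 0.91. Gzmg had signals of 468.3 and 203.9 in the early control and ablation and of 400.6 and 603.5 in the late ones, or -1.34 and 1.10.

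Gzme had signals of 255.9 and 136.6 early, a difference of -1.05, and of 221.8 and 219.9 late, where the signals were nearly the same and normalisation to the other arrays gave 0.43. Its other probe differed by -0.83 and 0.41. Gzmf was detected only in the early control, at a signal of 78 against 71.1 after ablation. Ctsg, the neighbour, differed by -0.63 early. Late it was detected only in the ablated tumour, at a deposited signal of 116.4 against 108.6 in the control. The bound of at least 1.33-fold above the control is on the normalised scale, and the deposited signals were closer than that. Gzmn differed by 0.02 and 0.46. Of the NK and innate lymphoid markers kept on these arrays, 6 of 7 were lower in the early pair (median -0.18, all genes -0.01). In the late pair 4 of 7 were higher (median 0.02, all genes 0.00), and Klrd1 differed by -0.37 and 0.05. T cell markers went the other way early, with 8 of 10 higher (median 0.20), and 7 of 10 were higher late (0.10). Nkg7, a granule protein of killer cells, differed by -0.61 and 0.33. The 14 kept genes for granule formation and release, Nkg7 among them, had medians of -0.19 and 0.01. The part of NK and T cells in the granzyme differences was not tested.

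Few genes were that much lower in the early pair. Of 9714 genes, 14 (0.144%) were lower by a log2 difference of 1 or more after early ablation, and 3 of those were Gzmd, Gzme and Gzmg. In the late pair 38 genes (0.391%) were higher by that much, among them Gzmg and Prf1, and 65 (0.669%) were lower, none of them a granzyme or Prf1. With arrays scaled to a common median, the late differences were 0.72 for Gzmg and 0.99 for Prf1, under that limit, and the early difference for Gzme was -0.96. Over the alternatives 3 to 6 member probes were lower by 1 or more early, where 4 were counted. Of the 4 arrays, the early control had the highest Gzmd signal.

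Prf1 did not follow the granzymes in the early pair by its brighter probe. That probe had a signal of 274.3 in the early control and 1170.3 after early ablation, a log2 difference of 1.82, and of 562.3 and 1029.4 late, a difference of 1.40. In the early pair 92 genes (0.947%) were higher by 1 or more. The dimmer probe again went another way, with differences of -0.44 and -0.02, the first of which was -1.02 with the authors' processed values. Its signal after early ablation, 80.4, was near background (detection p 0.02005). Erich5 and Gm7609, which were like the brighter probe on the 9 arrays, differed by 3.17 and 2.07 early and by 1.82 and 2.10 late, and the neutrophil genes S100a8, S100a9 and Retnlg by 2.53, 1.85 and 2.13 early and by 1.32, 1.98 and 1.54 late. The part of those cells in these values was not tested.

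**Figure D4:**
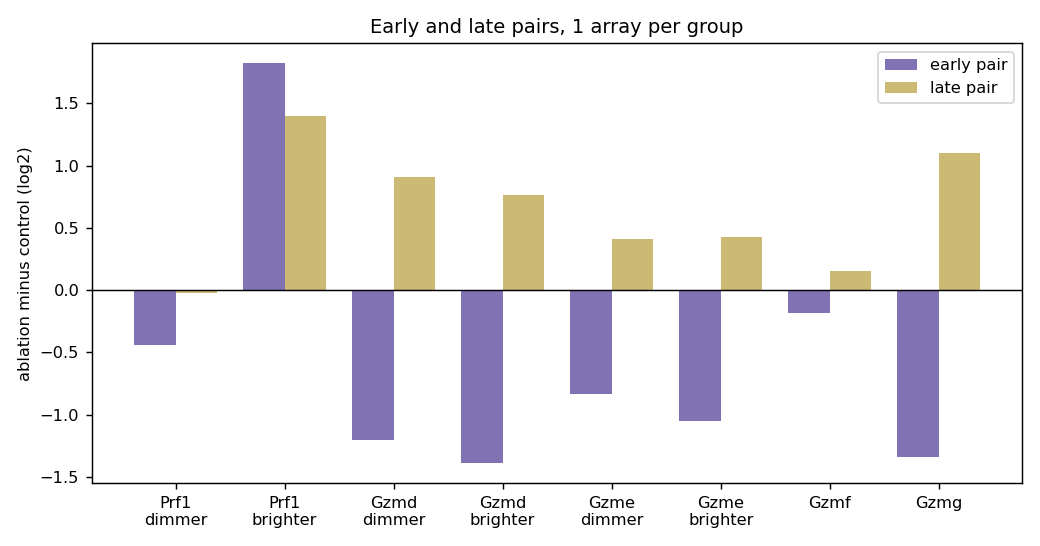
Log2 difference, ablation minus control, for each granzyme and Prf1 probe kept on the 4 arrays, with 1 array per group and so no error bar. All probes of Gzmd, Gzme and Gzmg lie below 0 in the early pair and above it in the late pair, and the brighter Prf1 probe lies above 0 in both. Gzmf was detected on the early control array only.

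Markers of the cells that carry these genes were partly detected. Of 12 NK and innate lymphoid markers 7 passed the filter on the 9 arrays, and the activating receptor Ncr1 and Klrb1c were detected on none. Klrd1, a receptor chain of NK and T cells, and Nkg7, a granule membrane protein, were detected on all 9. Klrd1 read 7.08, 7.52 and 8.10 in WT/IgG, 7.31, 7.16 and 8.85 in TK/IgG, and 7.65, 7.45 and 8.20 in TK/anti-Ang2, so that it was highest on TK/IgG replicate 3. The NK list ranged, as a mean log2 level, from 5.86 to 6.14 in WT/IgG, 5.97 to 6.42 in TK/IgG and 5.75 to 6.31 in TK/anti-Ang2. Its lowest array was TK/anti-Ang2 replicate 2, as for Gzmd and Gzmg. Its highest array was TK/IgG replicate 3 (6.42), where Gzmd and Gzmg were highest on TK/anti-Ang2 replicate 3.

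Of 15 T cell markers 8 passed, with Cd8a and Cd4 detected on no array. Cd3d, Cd3e and Cd3g were detected on all 9, each by its most often detected probe. Cd8b1, the other CD8 chain, was also detected on all 9, at 10.39 to 11.19, and Cd247, the CD3 zeta chain, on at most 2 by any of its probes. By its brightest probe Cd3e was highest on TK/IgG replicate 3 (7.76) and lowest on TK/IgG replicate 1 (4.68). The lowest value was at background, since the Mcpt9 probe, detected on no array, read 4.86 on TK/IgG replicate 1. On TK/IgG replicates 1 and 3, by their brighter or only probes, Gzmd read 12.56 and 12.62, Gzme 8.93 and 8.55, and Gzmg 10.30 and 9.88. The T cell list had ranges of 5.90 to 6.69, 5.93 to 7.54 and 6.34 to 6.86 in WT/IgG, TK/IgG and TK/anti-Ang2. In bulk tumour RNA fewer cells of a type and less RNA per cell cannot be told apart, and the part of these cells in the granzyme signal was not tested.

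Genes around the pathway did not pass the test in any comparison. Of the 15 genes for granule formation and release all 15 were kept, and 0 passed limma's adjusted test. Srgn, the proteoglycan core that holds granzymes in the granule, differed by 0.77 between TK/IgG and WT/IgG (limma's adjusted p 0.999). Calr, the chaperone calreticulin that binds perforin, differed by 0.70 between TK/anti-Ang2 and WT/IgG (limma's adjusted p 0.672). The list's median was -0.00 for TK/IgG minus WT/IgG, against -0.02 for all genes.

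Of 6 inhibitors of granzymes 4 were kept, and Serpinb9, the intracellular inhibitor of granzyme B, was not detected. All 4 had higher means with the antibody than in TK/IgG, with a median of 0.69 against -0.02 for all genes and 46.9% of genes higher, and none passed. Serpina3n, a secreted serpin that inhibits granzyme B in mice, read 9.04, 10.08 and 10.37 in TK/IgG, 11.22, 13.11 and 11.14 in TK/anti-Ang2, and 10.99, 8.41 and 10.77 in WT/IgG. TK/anti-Ang2 lay above TK/IgG without overlap, by 1.99 (SE 0.76, limma's adjusted p 0.992). Groups without overlap were seen for 6.95% of all genes there. In the pairs it differed by 2.67 early and -0.41 late.

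Among targets of granzymes, such as Bid and the caspases, 11 of 15 were kept, 0 passed limma's adjusted test, and their median difference between TK/IgG and WT/IgG was 0.07. Of 10 transcription factors 5 were kept, with Tbx21 and Runx3, regulators of killer cell genes, detected on no array. Of 15 cytokines and receptors 7 were kept. All 7 had higher means with the antibody than in TK/IgG, where 46.9% of all genes were higher. Their median was 0.35 against -0.02 for all genes, and 0 passed limma's adjusted test. Il18 (0.26) and Il15 (0.35), which raise granzyme expression in killer cells, had the smallest p. Of 5 other killing effectors 3 were kept, Tnf, Tnfsf10 and Fasl, with differences of 0.09, 0.15 and -0.08 between TK/IgG and WT/IgG.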

How the data were processed

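Total RNA was hybridised to Illumina bead arrays as biotinylated cRNA, per the labels' protocols. The deposited tables hold, per the file headers, a probe signal (intensity, linear, not normalised) and a detection p-value. GenomeStudio is named in the submitters' processing notes, without a version. On every array the authors' processed intensity was the deposited signal after 1 constant and 1 factor. Of the columns of the table with 9 arrays, 6 (3 arrays) belong to none of the samples and were left out. The late control's detection column repeats its signal.

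The 9 arrays were normalised with limma 3.58.1 in R 4.3.3 (neqc, offset 16), probes with detection p under 0.05 on at least 3 arrays were kept, and each gene took its brightest probe. Because of the late control's column, the 4 arrays were corrected with normexp (offset 50) and quantile-normalised, where neqc had been planned. There a probe needed detection on 1 array, and on the late control its signal had to be in the top 42.6%. Platforms were compared only through differences. Of 45281 probes 34885 had 1 symbol, 18 several and 10378 none, and of 25697 the counts were 23978, 0 and 1719. RefSeq names of GRCm38.p6 matched 34807 and 23962.

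Groups were compared with lmFit and eBayes over all 9 arrays with Benjamini-Hochberg adjustment at 0.05. Single genes had two-sided exact permutation tests, and correlations used all 362880 orders of 9 arrays (scipy 1.17.1). The fit was tested on simulated data. Members and lists were chosen with earlier results of these data known. Named were the 8 members, up to 3 genes per list by smallest p, cell type markers, and the 5 genes most like Prf1 and Gzmd to Gzmg. Genes of the chromosome 14 stretch, Gzmm, Klrd1, Nkg7, Cd3e, Cd8b1, Cd247 and Retnlg were named after their values were seen. Pairs were read at a log2 difference of 1. Promoter windows are from RefSeq. Shifts of Gzma and Gzmb could not be computed. Perforin against Gzmd to Gzmg, the probe fit and the dimmer Prf1 probe were added after seeing the data.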

Additional observations from a re-analysis of the deposited data

Results flagged for a closer look

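The granzyme probes changed sign between the pairs. Gzmd differed by -1.39 after early and 0.76 after late ablation by its brighter probe and by -1.20 and 0.91 by the other. Gzme differed by -1.05 and 0.43 by its brighter probe and by -0.83 and 0.41 by the other, and Gzmg by -1.34 and 1.10. All are log2 differences, ablation minus control, with 1 array per group. The difference between the pairs was not tested, and 24.5% of the 9714 genes were likewise lower early and higher late.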

How the results depend on the processing

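Alternatives covered background correction, scaling, the authors' values, other detection filters, the mean of a gene's probes, fits of 2 groups, array weights, the replicate block and each array left out. No member passed limma's adjusted test under any of them. The count over all genes for TK/anti-Ang2 minus WT/IgG was 1 with array weights and 0 otherwise. In the late pair, member probes higher by 1 or more were 0 under median scaling, where 2 were counted. In the early pair, member probes lower by 1 or more were 3 under median scaling, 5 with offset 16 and 6 with the authors' values, where 4 were counted. With array weights, Gzme in TK/anti-Ang2 minus TK/IgG was 0.01 against -0.24.

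Leaving out 1 array turned the following uncalled differences. For TK/anti-Ang2 minus TK/IgG, without TK/anti-Ang2 replicate 2, Gzmd was 0.11, Gzme 0.39, Gzmg 0.11 and Prf1 -0.23, and the lowest values were -1.0, -0.79, -1.32 and -0.36. Prf1 was -0.36 and -0.21 without TK/IgG replicates 2 and 3 and -0.01 without TK/anti-Ang2 replicate 1, and at most 0.83. For TK/anti-Ang2 minus WT/IgG, Gzmd was -0.24 and Gzmg -0.46 without TK/anti-Ang2 replicate 3, -0.03 and -0.13 without WT/IgG replicate 2, and at most 0.86 and 0.97. The cause was not tested. With an array left out, 0 genes passed in each comparison and 5 to 6 member pairs were correlated, 5 without TK/anti-Ang2 replicate 3. The other alternatives gave 6 or, with the mean of a gene's probes, 7.

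Whether replicate numbers pair the samples was not settled. Deviations from the group means correlated from -0.162 to 0.391 between same-numbered arrays and from -0.325 to 0.262 between different-numbered ones. With so few arrays these ranges cannot decide it, and the main fit treated the arrays as unpaired. With the replicate block, 0 genes passed in each comparison, and Gzme in TK/IgG minus WT/IgG remained at 0.96 with limma's unadjusted p at 0.0353. Comparisons of Gzma and Gzmb with the other members were not run, since Gzma had no named probe on the 9 arrays and Gzmb was at background.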
